A study of Rattus norvegicus with 8 samples.

Results

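Themis2, Ptpre, Sh3bp2, Rap1gap2, Bcl6 and Abi3 are 6 of the 17446 genes counted by RNA sequencing of whole blood from hypertensive rats given Chios mastic gum (CMG), a plant resin. They were chosen by measured values, as signaling genes whose level was higher after than before CMG administration in the AngII model, so that their values in that model are given as a description with no test. Their values in the DOCA–HS model, which the choice did not use although earlier results of these data were known, are tested below. Male Wistar rats, 12 to 14 weeks old, had received either angiotensin II (AngII) at 0.4 mg/kg/day from an implanted minipump, or the mineralocorticoid DOCA at 100 mg/kg each week with drinking water that held 0.9% NaCl and 1% KCl (DOCA–HS). Blood was taken before CMG, at week 1 of the AngII model and week 3 of the DOCA–HS model, and again after 4 weeks of CMG by daily gavage at 220 mg/kg, at week 5 and week 7. Each of these 4 groups has 2 libraries, and the labels do not state whether they came from separate rats, so the spread between them may be technical. No library of a group without CMG was analysed here, so that CMG and 4 further weeks of hypertension cannot be told apart.

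All 6 genes act inside the cell, between a surface receptor and the response of a leukocyte. Adaptor proteins such as THEMIS2 and SH3BP2 bring kinases and their substrates together after an immune receptor or a Toll-like receptor has been engaged, phosphatases such as PTPRE remove phosphate from these proteins, and RAP1GAP2 switches off RAP1, a small G protein that controls the adhesion of leukocytes and platelets. ABI3 belongs to the WAVE complex, which starts the branching of actin filaments, and BCL6 is a transcriptional repressor of germinal centre B cells, follicular helper T cells and macrophages.

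The promoters of the genes are shown because the genes were higher together in the AngII model, which is how they were chosen and no result. RefSeq (GRCr8) gave a promoter, from 250 bases before to 50 after the start of the gene, for 5 of the 6 genes, with the exception of Abi3. That of Themis2, on the minus strand, held 1 copy of GAGGAA, the core of sites for PU.1 and related ETS factors, at position -142. That of Ptpre, on the plus strand, held 1 GC box at position -50. The copies, read on both strands, are in capitals.
Themis2: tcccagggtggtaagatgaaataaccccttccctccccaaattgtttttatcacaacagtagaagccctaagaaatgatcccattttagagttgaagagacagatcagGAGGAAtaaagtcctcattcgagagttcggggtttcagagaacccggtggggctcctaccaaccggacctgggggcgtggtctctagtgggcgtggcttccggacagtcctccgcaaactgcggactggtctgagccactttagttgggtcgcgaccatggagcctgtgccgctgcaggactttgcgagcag
Ptpre: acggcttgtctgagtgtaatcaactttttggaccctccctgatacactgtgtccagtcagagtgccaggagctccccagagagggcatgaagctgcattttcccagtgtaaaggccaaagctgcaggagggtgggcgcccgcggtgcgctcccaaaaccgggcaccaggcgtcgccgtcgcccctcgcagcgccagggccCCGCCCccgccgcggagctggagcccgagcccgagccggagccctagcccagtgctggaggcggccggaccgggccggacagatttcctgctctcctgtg
The letters GAGGAA (or TTCCTC) were found in the promoter of 1 of the 5 genes, Themis2, and in 27.5% of the 27457 rat promoters of that length. The GC box GGGCGG (or CCGCCC) was found in 3 of the 5, Ptpre, Rap1gap2 and Sh3bp2, and in 34.9% of all promoters. The CCAAT box (CCAAT or ATTGG) was found in those of Bcl6 and Sh3bp2 and in 37.7% of all. The E-box CACGTG was found in Bcl6 alone of the 5 and in 6.65% of all. The STAT motif TTCNNNGAA was found in Themis2 alone and in 8.68% of all, and the AP-1 motif TGANTCA in 0 of the 5 and in 7.33% of all. No motif searched was found in all 5 promoters, and a match is no evidence that a factor binds there.

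The depth of the libraries limited what could be measured. Total counts were 4149104 to 13205565 per library, of which the hemoglobin genes Hbb and LOC100134871 took 61.9% to 84.3%. The second DOCA–HS library after CMG stood apart, with 651764 counts outside these genes and 2686 genes at 10 counts or more, against 6097 to 8280 genes in the other 7 libraries. The 6 genes had 16 to 265 counts each in the other 7 libraries and 2 to 23 counts in that one. Levels are given below as normalized CPM, the counts per 1e+06 of a library size scaled by TMM, and the DOCA–HS changes of the 6 genes and of the lists of related genes are given also without the shallow library.

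In the AngII model, the level of all 6 genes in both libraries after CMG was above that in both libraries before it. Among all 7201 genes tested in this model, 21.3% had this order and 18.6% the opposite one. The criterion of the study, a log2 fold change beyond 1.5 with a p at or under 0.05 before adjustment, was passed by 4 of the 6, Themis2, Rap1gap2, Ptpre and Sh3bp2, where 0.903% of all genes passed it as higher and 0.333% as lower after CMG. The values of this comparison chose the genes, and nothing is read from these counts. The median log2 fold change of the 6 genes was 1.54, beside -0.01 over all genes. Sh3bp2, at 1.51, lay just inside the threshold, and Bcl6, at 1.29, was the nearest outside it. In edgeR's quasi-likelihood test, 479 of all genes had a p-value of 0.05 or less before adjustment. An adjusted p-value under 0.05 was held by 0 (Benjamini-Hochberg, lowest 0.474), while DESeq2 gave 3 genes. With no filter edgeR gave 51, and with the replicate number as a block 165.

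Themis2 encodes an adaptor that binds GRB2 in B cells and macrophages and tunes Toll-like receptor responses. In AngII blood it stood at 4.48 and 3.55 normalized CPM before CMG and at 15.2 and 12.1 afterwards, from 57, 21, 95 and 164 counts. The mean went from 4.01 ± 0.659 to 13.7 ± 2.17 normalized CPM (SD, n = 2), which is 3.38-fold (log2 fold change 1.76, SE 0.32), the highest fold of the 6 genes, although Rap1gap2 was higher without the first library before CMG (log2 fold change 2.13 against 1.95) or without the second after it (2.04 against 1.91). Ptpre encodes protein tyrosine phosphatase epsilon, which acts on Src family kinases. It was measured at 2.36 and 2.70 normalized CPM before CMG and at 7.19 and 7.46 after it, 2.96-fold higher (log2 fold change 1.56, SE 0.30). The libraries of Ptpre lay close together within each group (2.53 ± 0.244 and 7.33 ± 0.190 normalized CPM, SD, n = 2), although they rest on 30, 16, 45 and 101 counts.

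Sh3bp2 encodes an adaptor that binds SYK, VAV and phospholipase C gamma and is marked for degradation by tankyrase. Its level was 2.75 and 3.55 normalized CPM before CMG and 8.47 and 8.94 after it, 2.85-fold higher (log2 fold change 1.51, SE 0.30). Rap1gap2, the GTPase-activating protein of RAP1 that is known from platelets, went from 4.63 and 2.87 to 15.8 and 9.31 normalized CPM. Its fold was 3.26 (log2 fold change 1.71, SE 0.40), and its libraries after CMG were the farthest apart of the 6 genes (12.6 ± 4.61 normalized CPM, SD, n = 2). Bcl6 went from 5.66 and 6.92 to 14.4 and 15.7 normalized CPM, 2.45-fold higher (log2 fold change 1.29, SE 0.29). Abi3 had the smallest change of the 6, from 7.23 and 4.39 to 9.75 and 10.4 normalized CPM, 1.72-fold higher (log2 fold change 0.78, SE 0.34), and the narrowest gap between the groups. This value was 0.45 without the second and 1.21 without the first library before CMG.

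**Figure D1:**
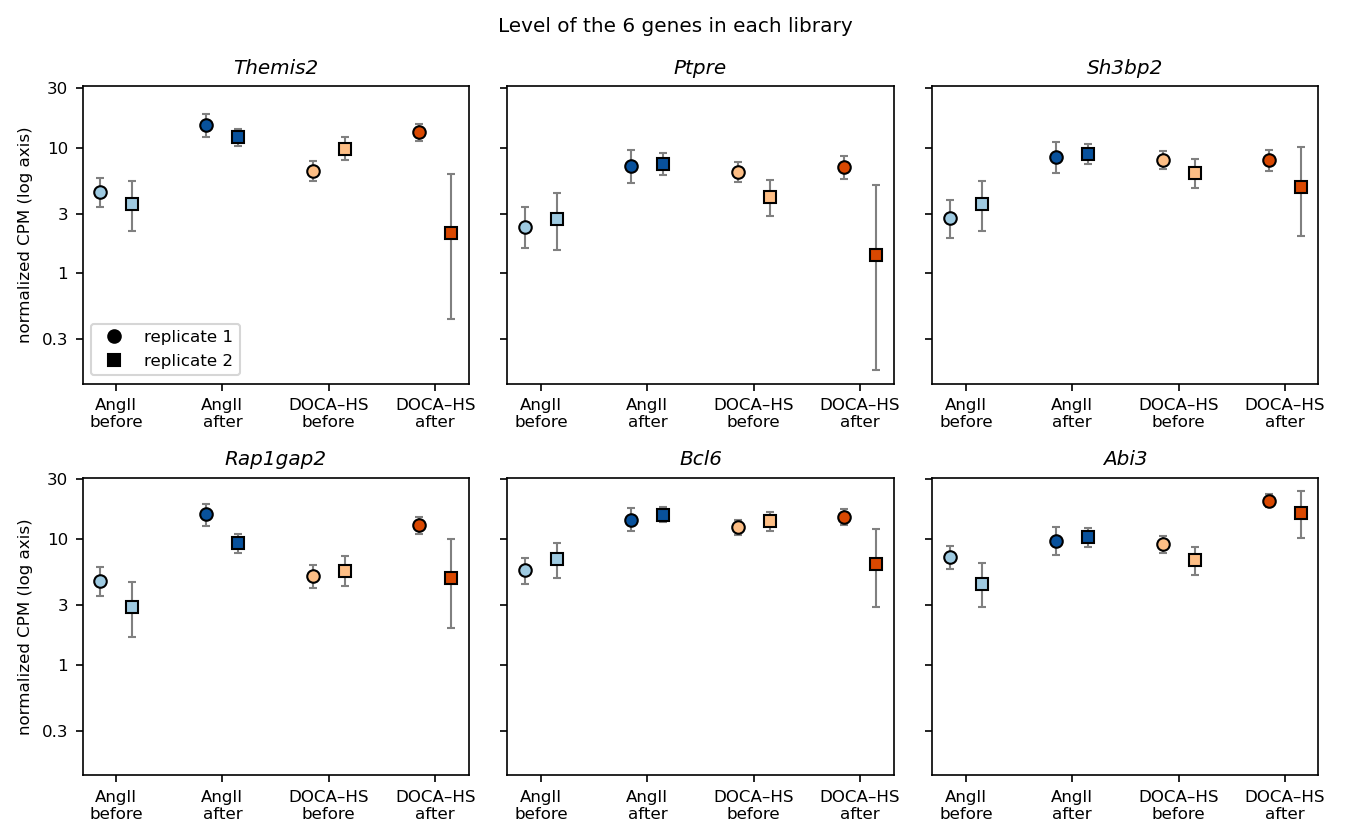
Normalized CPM (log axis) of the 6 genes in each of the 8 libraries, by model and time of the blood. Circles are replicate 1, squares replicate 2, and bars the 95% Poisson interval of the count, which covers counting error only. Both AngII libraries after CMG lie above both before it for each gene, and the second DOCA–HS library after CMG is the lowest of the 8 for Themis2 (2.11) and Ptpre (1.41).

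The DOCA–HS model asks whether the same genes differed after CMG in blood whose values were not used to choose them. Of the 6 genes, 0 passed the criterion, where 1.79% of the 7720 genes tested passed it as higher and 0.259% as lower after CMG. The estimated change was above 0 for 3 of the 6. The median log2 fold change was 0.04, beside -0.04 over all genes, but -0.81 without the first and 0.57 without the second library after CMG. Of the 6, 1 gene, Abi3, had a p-value under 0.05 before adjustment in edgeR. Abi3 was also the only one whose libraries after CMG were both above those before it, an order that 14.7% of all genes had, while 21.1% had the opposite order and 0 of the 6 genes did. By edgeR's quasi-likelihood test, 245 of all genes had a p-value of 0.05 or less before adjustment. An adjusted p-value under 0.05 was held by 0 (lowest 0.997). DESeq2 also gave 0, while edgeR with no filter gave 21.

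Abi3 was measured at 9.13 and 6.79 normalized CPM before CMG in the DOCA–HS model and at 20.4 and 16.2 after it. The log2 fold change was 1.21 (SE 0.44, 95% interval 0.20 to 2.23, 2.32-fold), with an unadjusted p-value of 0.0249 and an adjusted p-value of 0.997 in edgeR's quasi-likelihood test. It did not pass the test after adjustment. The log2 fold change was 0.49 with total counts as the library size (unadjusted p = 0.708 in edgeR) and 0.81 with counts outside hemoglobin (unadjusted p = 0.268 in edgeR), and the unadjusted p-value was 0.0628 with at least 10 counts per library and 0.170 and 0.317 without the first and the second library before CMG. With the total counts as the library size the groups overlapped (CPM of 17.1 and 7.83 before CMG, 29.3 and 5.54 after it). Rap1gap2 had 5.09 and 5.63 normalized CPM before CMG and 13.0 and 4.92 after it. Its log2 fold change was 0.87 (SE 0.52, 95% interval -0.31 to 2.05, unadjusted p = 0.129 in edgeR), and the library with 4.92 normalized CPM rests on 7 counts.

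In DOCA–HS blood, Themis2 had 6.53 and 9.87 normalized CPM before CMG and 13.3 and 2.11 afterwards. The groups overlapped, since the 2 libraries after CMG were the highest and the lowest of the 4, and the lowest rests on 3 counts (95% Poisson interval 0.435 to 6.16 normalized CPM). The log2 fold change was 0.13 (SE 0.65, 95% interval -1.36 to 1.62, unadjusted p = 0.852 in edgeR), so that its interval held a fall as well as a rise of more than 2-fold. Ptpre had 6.47 and 4.03 normalized CPM before CMG and 7.07 and 1.41 after it, the last from 2 counts, with a log2 fold change of -0.04 (SE 0.61, 95% interval -1.43 to 1.35, unadjusted p = 0.954 in edgeR). Sh3bp2 had 8.08 and 6.26 normalized CPM before CMG and 7.99 and 4.92 after it, with a log2 fold change of -0.07 (SE 0.46, 95% interval -1.13 to 1.00, unadjusted p = 0.888 in edgeR). Bcl6 had 12.5 and 13.9 normalized CPM before CMG and 15.1 and 6.33 after it, with a log2 fold change of -0.20 (SE 0.50, 95% interval -1.34 to 0.94, unadjusted p = 0.699 in edgeR). None of these 4 changes differed from 0 beyond the spread between libraries.

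Without the shallow library, all 6 changes of the DOCA–HS model were above 0. Abi3 then had a log2 fold change of 1.35 and Rap1gap2 one of 1.29. Themis2 had a log2 fold change of 0.72, and the other 3 lay at 0.41 for Ptpre, 0.21 for Bcl6 and 0.15 for Sh3bp2. This fit holds 1 library after CMG, whose spread is assumed to be that of the 2 libraries before it, so that only effect sizes are given for the 6 genes. Without the other DOCA–HS library after CMG, which leaves the shallow one alone, the log2 fold changes were -1.93 for both Themis2 and Ptpre, -1.06 for Bcl6, -0.56 for Sh3bp2, -0.12 for Rap1gap2 and 1.01 for Abi3. That fit also holds 1 library after CMG. With TMM scaling, the direction of these changes, except that of Abi3, thus depended on which of the 2 libraries after CMG was kept. With total counts Abi3 had a CPM of 5.54 in the shallow library and 29.3 in the other, against 17.1 and 7.83 before CMG. Its direction thus depended on the library kept as well. With counts outside hemoglobin the shallow library, at 35.3, lay between those before CMG, at 45.0 and 27.0.

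**Figure D2:**
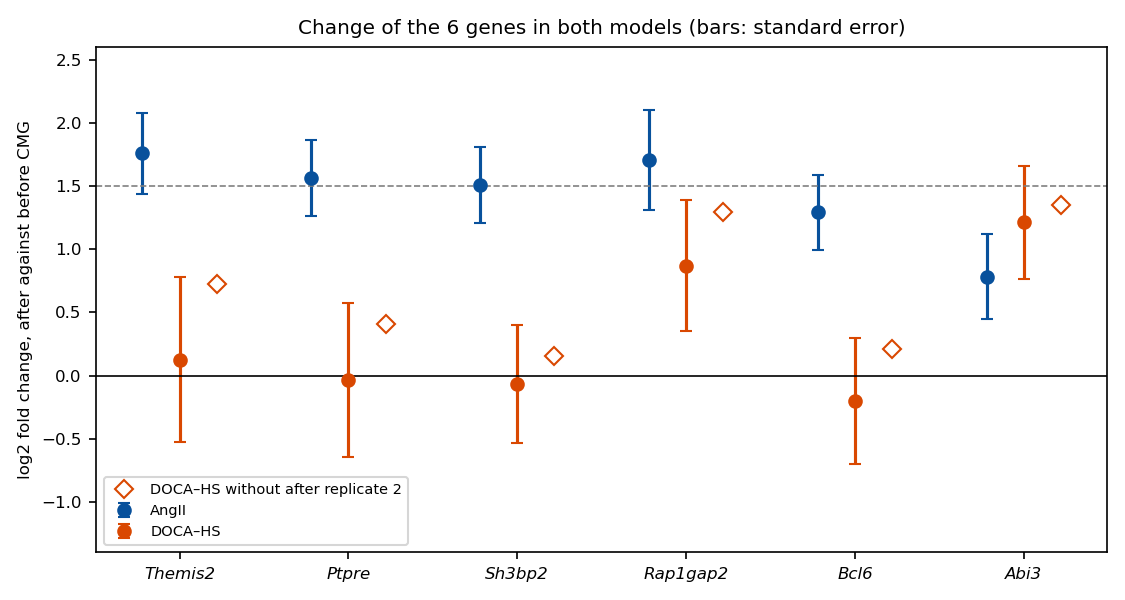
Log2 fold change, after against before CMG, of the 6 genes with AngII (blue) and with DOCA–HS (orange), with bars of 1 standard error from edgeR. Open diamonds are the DOCA–HS values without the shallow library, and the dashed line is the threshold of 1.5. The AngII points lie between 0.78 and 1.76, and the DOCA–HS points between -0.20 and 1.21.

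The change in the DOCA–HS model minus that in the AngII model was -1.59 (SE 0.79) on the log2 scale for Themis2, -1.54 (SE 0.70) for Ptpre, -1.54 (SE 0.53) for Sh3bp2 and -1.46 (SE 0.59) for Bcl6. It was -0.81 (SE 0.67) for Rap1gap2 and 0.44 (SE 0.54) for Abi3. With 1 library left out these ranged from -1.80 (without the first DOCA–HS library after CMG) to -0.38 (without the first AngII library after CMG) for Rap1gap2, and from 0.0081 to 0.73 for Abi3 (without the first and the second AngII library before CMG). As the genes were chosen for their change in one of the models, these differences are a description with no test, and the median of the 6, -1.498, was -1.05 without the shallow library, -2.19 without the other DOCA–HS library after CMG and -2.35 with total counts. Without that other library the difference was -3.68 for Themis2, -3.45 for Ptpre and -2.34 for Bcl6, and with total counts it was -2.62 for Sh3bp2 and -2.38 for Bcl6. The levels before CMG also differed between the models. Both DOCA–HS libraries before CMG were above both AngII libraries before CMG for 5 of the 6 genes in normalized CPM, with the exception of Abi3, for 6 of the 6 with total counts or counts outside hemoglobin, and in normalized CPM for 24.3% of all 7994 genes tested over the 8 libraries. For Sh3bp2 the means before CMG were 3.15 ± 0.563 normalized CPM with AngII and 7.17 ± 1.28 with DOCA–HS, and the mean after CMG in the AngII model was 8.71 ± 0.331 (SD, n = 2). For Bcl6 they were 6.29 ± 0.896 and 13.2 ± 0.992, and 15.1 ± 0.955 after CMG in the AngII model (SD, n = 2). The AngII libraries before CMG entered the choice of the genes, so a low level there is part of what chose them, and the models also differed in the week of the blood.

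In normalized CPM, the order of the levels over the 4 groups was alike in 5 genes, although a rise in the AngII model is what chose them. For Themis2, Ptpre, Sh3bp2, Rap1gap2 and Bcl6 the AngII group before CMG had the lowest mean and the AngII group after it the highest, and both DOCA–HS groups lay between, with means that differed by less than the larger of their SDs (8.20 ± 2.36 before and 7.70 ± 7.90 after CMG for Themis2, SD, n = 2). The top of this order depended on the scaling: with total counts the DOCA–HS mean before CMG was above the AngII mean after it for Sh3bp2 (CPM of 11.2 and 9.98) and Bcl6 (19.7 and 17.3) and level with it for Ptpre (8.40 and 8.39), and outside hemoglobin it was above it for Sh3bp2 and Bcl6 as well. It also rested on the shallow library. Without it, the DOCA–HS value after CMG was 13.3 normalized CPM for Themis2, 7.07 for Ptpre, 7.99 for Sh3bp2, 13.0 for Rap1gap2 and 15.1 for Bcl6, with the last 2 above the AngII mean after CMG, and in total counts it was above that mean for all 6 genes (CPM of 19.1 and 15.2 for Themis2). For Rap1gap2 the order from the lowest mean was AngII before (3.75 ± 1.25), DOCA–HS before (5.36 ± 0.379), DOCA–HS after (8.95 ± 5.70) and AngII after CMG, and the last 2 groups overlapped. Abi3 alone had its highest mean in the DOCA–HS group after CMG, with 18.3 ± 2.96 normalized CPM (SD, n = 2) against 10.1 ± 0.471 in the AngII group after CMG.

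Likeness over the 8 libraries was measured as the root mean square difference of log2 CPM after each gene was centred on its own mean, so that a low value means a like pattern. Among the 15 pairs of the 6 genes it went from 0.23, for Sh3bp2 and Bcl6, to 1.02, for Themis2 and Abi3, with a median of 0.53. Of 7395 other genes, the nearest to Themis2 were Nlrc4 (0.25), Itgam (0.27) and Pld4 (0.28), where the median over all genes was 0.97. Nlrc4 encodes an inflammasome sensor and Itgam the integrin CD11b. The nearest to Ptpre were Ltv1 (0.20), Samsn1 (0.20) and Sh3tc1 (0.21), and those to Sh3bp2 were Nol10 (0.14), Anxa5 (0.14) and Ccdc32 (0.18). The nearest to Bcl6 were Ankfy1 (0.15), Cd302 (0.15) and Slamf1 (0.17), those to Rap1gap2 were Ltbr, F8 and Lrp1 (0.32 each), and those to Abi3 were Phf20 (0.26), Agpat4 (0.26) and Calhm2 (0.27). The libraries share their depth and hemoglobin content across genes, and the shallow one is among the 8. So are the AngII libraries whose values chose the genes, so that the 6 genes are alike in part by choice. No test was made of these values.

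Whole blood is a mixture, in which fewer cells of a type and less RNA per cell cannot be told apart. In the AngII model the summed level of 7 monocyte markers was 400 to 409 normalized CPM before CMG and 503 to 506 after it, and 4 of the 5 tested were above 0 (median log2 fold change 0.72). The sum of 7 natural killer cell markers was 39.0 to 41.8 before and 63.3 to 73.5 after CMG, with 5 of 5 tested above 0. Most of the monocyte sum was Lyz2 (363.6 ± 13.1 before and 418 ± 21.2 after CMG), while the other markers of the list ranged from Cd14 at 2.50 ± 0.908 and 1.24 ± 1.07 (0.495-fold) and Cd68 at 7.02 ± 0.851 and 11.5 ± 0.447 (1.64-fold) to Csf1r at 29.7 ± 16.5 and 68.1 ± 20.3 normalized CPM (2.29-fold) and Cx3cr1 at 1.26 ± 1.55 and 3.80 ± 1.19 (3.01-fold). Prf1, which encodes perforin, was at 14.4 ± 2.03 and 32.7 ± 4.59 (2.27-fold, SD, n = 2). Both libraries after CMG were above both before it for 4 of the 7 monocyte and 4 of the 7 natural killer cell markers. Of all genes tested, 21.3% had this order and 18.6% the opposite one. The erythroid sum went from 21311 to 27502 down to 13391 to 21180, the T cell sum from 202 to 218 down to 148 to 184 (with Cd4 higher without overlap, 1.49-fold), and the neutrophil sum of 237 to 252 before CMG overlapped that of 216 to 248 after it. Behind this sum, 3 of 8 neutrophil markers were higher without overlap after CMG, Csf3r (1.46-fold), Cxcr2 (1.66-fold) and Fcgr3a (2.51-fold), and 4 were lower, S100a8 and S100a9 among them. The B cell sums (59.0 to 80.9 before, 61.5 to 106 after) and platelet sums (166 to 549 before, 53.1 to 498 after) overlapped as well, while the B cell markers Ms4a1 (1.52-fold) and Cd22 (1.79-fold) were higher without overlap after CMG. Of the markers, 0 passed the criterion in the AngII model. The part of the monocyte, natural killer cell, neutrophil and B cell markers in the values of the 6 genes was not tested.

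In the DOCA–HS model the platelet sum went from 182 to 264 before CMG up to 522 to 948 after it. The criterion was passed as higher by 2 of 4 tested platelet markers, beside 1.79% of all genes. It was passed as lower by 1 of 8 neutrophil markers, beside 0.259% of all genes. The platelet change stands beside the values of Rap1gap2, which platelets express, and of Abi3. After CMG, the platelet sum was 948 in the shallow library and 522 in the other. Rap1gap2 was at 4.92 and 13.0 normalized CPM in the same order, and Abi3 at 16.2 and 20.4. The part of the platelet change in these values was not tested. The B cell sum went from 92.5 to 126 down to 35.1 to 76.7 and the T cell sum from 213 to 225 down to 135 to 168, with 0 of 7 and 0 of 8 tested markers above 0, beside the change of -0.20 of Bcl6. The monocyte sum (430 to 679 before, 386 to 621 after), the neutrophil sum (132 to 420 before, 209 to 491 after) and the erythroid sum (10673 to 14761 before, 11613 to 36457 after) overlapped, and the natural killer cell sum was 35.0 to 46.7 before and 48.8 to 54.8 after CMG. Behind the erythroid sum, 7 of 7 tested markers were above 0 (median log2 fold change 0.55). Of these, Ahsp (2.47-fold), Klf1 (1.36-fold) and Hemgn (1.46-fold) were higher without overlap, an order that 14.7% of all genes had. Of the defining markers, Cd163 and Gp1bb had 0 counts in all 8 libraries. The liver marker Alb had 0 counts in the 4 libraries before CMG and 1, 6, 11 and 4 counts in those after it, so that it moved with the comparison in both models, and its part in the results was not tested. The heart and kidney markers Myh6 and Umod had 0 counts in all 8 libraries.

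**Figure D3:**
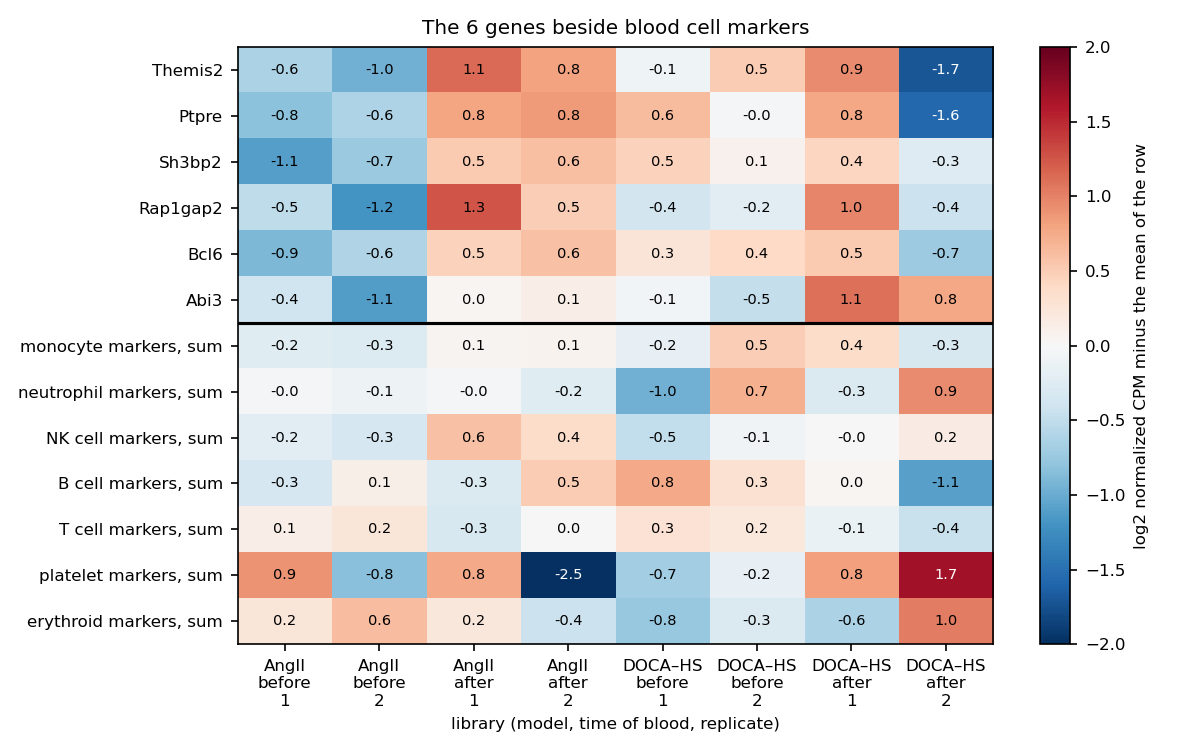
Log2 normalized CPM, here with no prior count, minus the mean of the row, for the 6 genes (above the line) and the summed markers of 7 blood cell types (below it) in each library. Red is above and blue below the mean of the row, and colours stop at 2 in either direction. The AngII columns before CMG are blue for all 6 genes, and the last column holds the shallow library, in which Themis2 is at -1.7, Ptpre at -1.6 and the platelet sum at 1.7.

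The partners and targets of the 6 proteins were read from lists of 116 genes, some in more than 1 list, of which 82 were tested in each model. With AngII, 0 of the 82 passed the criterion as higher and 1 as lower after CMG, beside 0.903% and 0.333% of all genes. An edgeR p-value of 0.05 or less before adjustment was held by 8, beside 6.65% of all genes tested. The median log2 fold change was 0.05. With DOCA–HS, 1 of the 82 passed the criterion as higher and 0 as lower, beside 1.79% and 0.259% of all genes. There 3 had an edgeR p-value of 0.05 or less before adjustment, beside 3.17% of all genes tested, and the median was -0.16. Without the shallow library, 85 were tested in the DOCA–HS model, of which 1, the receptor phosphatase gene Ptprm, passed it as higher (1.15% of all genes) and 0 as lower, 13 had a p-value of 0.05 or less before adjustment, beside 9.42% of all genes tested, and the median was 0.06. The medians of the lists were then 0.10 for the THEMIS2 partners, 0.53 for the receptor phosphatases, 0.04 for the SH3BP2 partners, 0.15 for the RAP1 switch, -0.21 for the BCL6 list and -0.02 for the WAVE and ARP2/3 complexes.

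Among the 11 partners of THEMIS2, 7 lay above 0 with AngII (median log2 fold change 0.62) and 3 with DOCA–HS (median -0.07). Lyn, a Src family kinase of B and myeloid cells, went from 20.2 ± 1.16 to 35.1 ± 2.98 normalized CPM in the AngII model (log2 fold change 0.81, unadjusted p = 0.0259, adjusted p = 0.676 in edgeR). Inpp5d, which encodes the lipid phosphatase SHIP1, had a log2 fold change of 0.83 (unadjusted p = 0.0262 in edgeR). Lat2, an adaptor of B and mast cells, had one of 0.95 (unadjusted p = 0.0346 in edgeR). Plcg2 and Ptpn6, which encode a phospholipase C gamma and the phosphatase SHP-1, were at 0.68 and 0.64. Grb2, the direct partner of THEMIS2, was at -0.21 and Vav1 at -0.17, so that the values of this list lay on both sides of 0. In the DOCA–HS model the log2 fold changes of these genes were 0.05 for Lyn, -0.01 for Inpp5d, -0.56 for Lat2, -0.06 for Plcg2, 0.08 for Ptpn6, -0.19 for Grb2 and -0.43 for Vav1. With the shallow library left out they were 0.33, 0.32, -0.15, 0.14, 0.10, 0.12 and 0.06 in the same order, so that 4 of the 7 turned from below to above 0.

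Of 20 receptor tyrosine phosphatases other than Ptpre, 6 were tested. Ptpro, a receptor phosphatase of podocytes and leukocytes, went from 3.78 ± 0.326 to 9.83 ± 0.106 normalized CPM in the AngII model (log2 fold change 1.38, SE 0.29, unadjusted p = 0.00142, adjusted p = 0.628 in edgeR), the value closest to that of Ptpre in the list, and was at 0.33 in the DOCA–HS model. Ptpra, the closest relative of Ptpre, was at -0.13 and -0.35, and Ptprc, which encodes the leukocyte antigen CD45, at 0.05 and -0.44. Ptprj, which encodes the phosphatase CD148, passed the criterion in the DOCA–HS model, with 25.7 ± 5.45 normalized CPM before and 78.8 ± 41.6 after CMG (log2 fold change 1.61, unadjusted p = 0.0194, adjusted p = 0.997 in edgeR), and was at -0.06 in the AngII model. Without the shallow library it was at 0.96 and did not pass the criterion, and Ptpro was then at 0.74, Ptpra at -0.25 and Ptprc at 0.01.

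The 13 partners of SH3BP2 tested had medians of -0.03 with AngII and -0.20 with DOCA–HS. Vav3, a relative of Vav1, went from 2.98 ± 0.324 to 5.30 ± 0.186 normalized CPM with AngII (log2 fold change 0.86, unadjusted p = 0.0243, adjusted p = 0.663 in edgeR) and was at 0.19 with DOCA–HS. Syk, the kinase that SH3BP2 binds, was at 0.26 and -0.39, and Tnks, which encodes tankyrase, at 0.52 and 0.19. Rnf146, which encodes the ubiquitin ligase that acts after tankyrase, was at 0.03 and -0.30, and Tnks2 was under the filter on low counts. The 20 genes of the RAP1 switch had medians of 0.14 and -0.10, with Rap1a at -0.42 and 0.04 and Rap1b at 0.08 and -0.24. Sipa1, another GTPase-activating protein of RAP1, was at 0.04 and -0.79, and Rap1gap, the paralog of Rap1gap2, was under that filter. Rasgrp2, the exchange factor that activates RAP1 in platelets, was at -0.01 and 0.29. The DOCA–HS values without the shallow library were 0.06 for Syk, 0.53 for Tnks, -0.13 for Rnf146 and 0.48 for Vav3, and 0.08 for Rap1a, 0.58 for Rap1b, -0.12 for Sipa1 and 0.17 for Rasgrp2. Rasgrp4, an exchange factor of myeloid cells, was at 0.98 in the AngII model (unadjusted p = 0.0136, adjusted p = 0.628 in edgeR), and at -0.04 with DOCA–HS, or 0.63 without the shallow library.

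The 16 partners and targets of BCL6 had medians of -0.02 with AngII and -0.59 with DOCA–HS. Cd69, an early activation marker of lymphocytes that BCL6 represses, passed the criterion as lower in the AngII model, from 22.8 ± 1.14 to 7.30 ± 2.64 normalized CPM (log2 fold change -1.60, SE 0.34, unadjusted p = 0.00159, adjusted p = 0.628 in edgeR). In DOCA–HS blood, where the change of Bcl6 was -0.20, Cd69 was at -1.09 (unadjusted p = 0.0766 in edgeR), with both libraries after CMG below both before it, and at -0.68 without the shallow library. Myc, also in the list, was at -0.87 with AngII (unadjusted p = 0.0394 in edgeR) and at -0.65 with DOCA–HS, without overlap in either model. The corepressor genes Bcor and Ncor1 were at 0.51 and -0.13 with AngII and at -0.16 and 1.26 with DOCA–HS, and Prdm1 and Bcl6b were under the filter. The DOCA–HS values without the shallow library were -0.21 for Myc, 0.15 for Bcor and 0.43 for Ncor1. The 19 genes of the WAVE and ARP2/3 complexes had medians of 0.01 and 0.13. The paralogs of Abi3 were at 0.42 and -0.44 (Abi1) and at -0.16 and 1.38 (Abi2, unadjusted p = 0.0240, adjusted p = 0.997 in edgeR, DOCA–HS model), while Nckap1l, the subunit of the complex in blood cells, was at 0.35 and -0.41 and Wasf2, which encodes WAVE2, at -0.18 and 0.27. Without the shallow library the DOCA–HS values were 0.07 for Abi1, 1.38 for Abi2, -0.04 for Nckap1l and 0.45 for Wasf2.

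**Figure D4:**
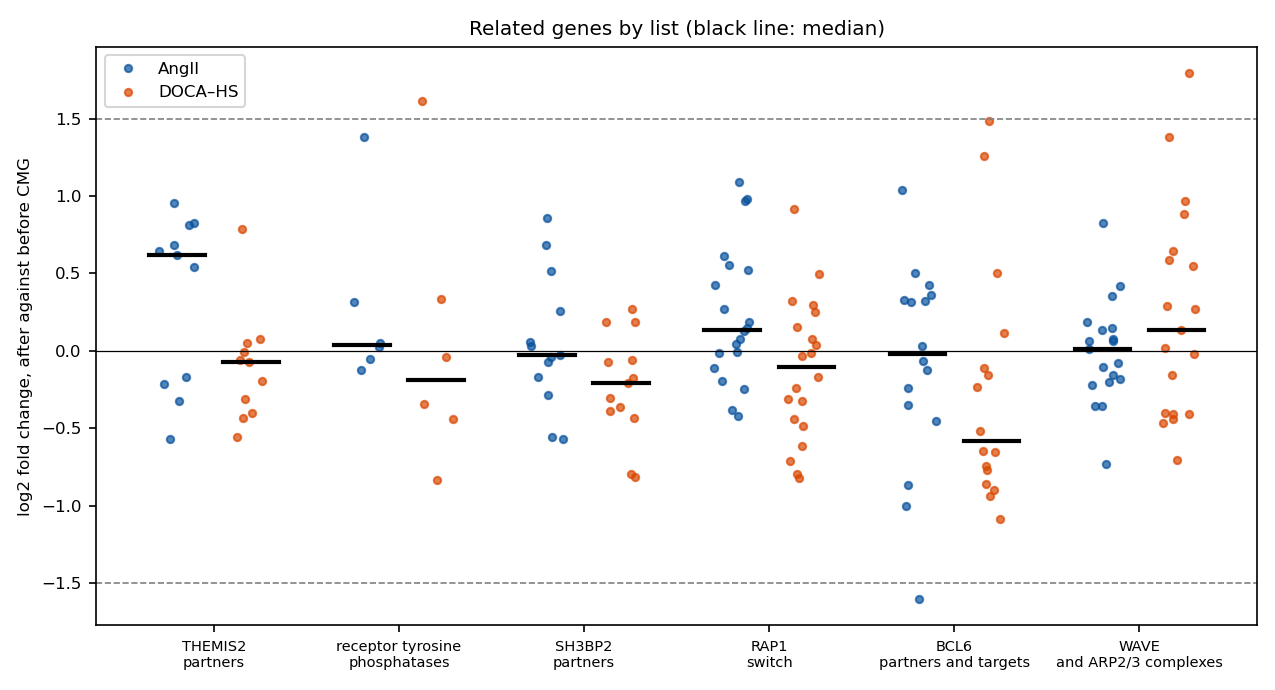
Log2 fold change, after against before CMG, of each related gene tested, by list and model, with the median of the list as a black line and dashed lines at 1.5 and -1.5. The median of the THEMIS2 partners in the AngII model (0.62) is the highest and that of the BCL6 list in the DOCA–HS model (-0.59) the lowest, and Cd69 lies below the lower dashed line in the AngII model.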

How the data were processed

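Whole blood RNA of 8 libraries was sequenced as single-end reads, which the authors aligned to rn6 with HISAT2 and counted with htseq-count (HTSeq 2.0.3, by strand). The authors deposited counts per gene without normalization. They state that hemoglobin annotations were removed, while Hbb and LOC100134871 are among the counts. No row was without a gene name and 0 columns of other samples were present. The authors tested with DESeq2.

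Here, edgeR 4.0.16 in R 4.3.3 was run on the 4 libraries of 1 model at a time (filterByExpr, TMM, glmQLFit and glmQLFTest), after against before CMG, with Benjamini-Hochberg adjustment across the genes tested. A joint fit of the 8 libraries gave the difference between the models. SE is the absolute log2 fold change divided by the square root of F. Normalized CPM used TMM factors over the 8 libraries, and log2 CPM a prior count of 2. Intervals are at 95%. The computation was tested on simulated counts.

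The named genes were the 6 genes, for each its 3 nearest genes by pattern, and from the lists the genes past the criterion and the closest partners or relatives of the 6 proteins, fixed by name, not all of which are reported here. The nearest genes had to average 10 counts or more per library. The 6 genes and the lists were chosen with earlier results of these data known. Rasgrp4, Inpp5d, Lat2, Vav3 and Myc were named for their p-values, and single cell markers for their values, after these were seen. Symbols of GRCr8, another build than rn6, were found for 15493 gene names, so no coordinates are given. The alternatives were DESeq2 1.42.0, limma-voom (limma 3.58.1), other scalings and filters, 1 fit of all libraries, the replicate number as a block, and each library left out in turn.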

Additional observations from a re-analysis of the deposited data

Results flagged for a closer look

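In 4 of the 82 related genes tested in both models (4.88%), and in 5.49% of all 7118 genes so tested, both libraries after CMG lay beyond both before it, one way in the AngII model and the opposite way in the DOCA–HS model. The change in the DOCA–HS model minus that in the AngII model was -1.48 on the log2 scale for Lat2, -0.817 for Btk, -1.55 for Irf4 and 1.96 for Ctbp1. These differences did not pass the test: in the fit of all 8 libraries 0 of 7994 genes had an adjusted p-value under 0.05 for the difference between the models (edgeR, lowest 0.881), with 299 at a p-value of 0.05 or less before adjustment. Irf4 and Lat2 were at 1.24 ± 0.800 and 1.78 ± 0.370 normalized CPM before CMG in the AngII model, and Ctbp1 at 241 ± 116 after CMG in the DOCA–HS model (SD, n = 2). Without the shallow library the differences were -1.09 for Lat2, -0.68 for Btk, -1.43 for Irf4 and 1.37 for Ctbp1.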

How the results depend on the processing

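The 4 members past the criterion in the AngII model became 3 with DESeq2, with the DESeq2 size factors, with no filter and with all 8 libraries in 1 fit, 5 with total counts or with counts outside hemoglobin as the library size, and 2 to 3 with 1 library left out (2 without the first library before or the first after CMG). The median log2 fold change of all 6 members was 1.91 with total counts and 1.93 outside hemoglobin, where the median of all genes was 0.36 and 0.38 (AngII) and -0.76 and -0.41 (DOCA–HS). In the DOCA–HS model 0 members passed the criterion as higher under every alternative that kept both libraries of each group. Without the first library after CMG, which leaves the shallow one alone, Themis2 and Ptpre were both at -1.93. Their counts in the shallow library were 3 and 2. In the DOCA–HS model Themis2 was at -0.24 with total counts, -0.12 outside hemoglobin and -0.11 with the replicate block. Ptpre was at 0.046 with limma-voom and 0.00084 with all 8 libraries, and Sh3bp2 at 0.011 with limma-voom. With 1 library left out these 3 genes ranged from -1.93 to 0.72, -1.93 to 0.41 and -0.56 to 0.15, in that order. Rap1gap2 ranged from -0.12 to 1.29 and Bcl6 from -1.06 to 0.21. The median of the 6 in this model was -0.44 with total counts, -0.25 outside hemoglobin and -0.13 with the replicate block. With at least 10 counts it was 0.97, from Abi3 alone. The difference of Abi3 between the models was -0.66 with total counts and -0.37 outside hemoglobin, and where each library had to hold 10 counts the median difference was -0.031, from Abi3 alone.

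All genes higher after CMG in the AngII model were 210 with total counts, 225 outside hemoglobin, 134 with no filter, 11 with at least 10 counts and 66 to 181 with 1 library left out, and genes lower were 12, 13, 67, 11 and 33 to 305. The share of higher among called genes went from 73.0% to 94.6% with total counts and 94.5% outside hemoglobin. In the DOCA–HS model, genes higher were 211 with DESeq2, 0 with total counts, 20 outside hemoglobin, 225 with no filter, 31 with at least 10 counts and 26 to 606 with 1 library left out, and genes lower were 8, 9, 12, 43, 1 and 2 to 1106, and 31 with all 8 libraries. There the share of higher went from 87.3% to 0% and 62.5%. Without the first library after CMG it was 24.3% with AngII and 35.4% with DOCA–HS. Related genes higher in the AngII model were 1 with total counts, outside hemoglobin and with no filter, and 0 to 2 with 1 library left out, and related genes lower were 2 with limma-voom, 0 with both scalings and 1 to 6. In the DOCA–HS model, related genes higher were 3 with DESeq2 and its size factors, 2 with limma-voom, no filter and all 8 libraries, 0 with both scalings and with at least 10 counts, and 0 to 5 with 1 library left out, and related genes lower were 0 to 23. The causes were not tested. Counts with 1 library left out rest on p-values from fits with 1 library in a group, and are a description only.

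The replicate number as a block gave 165 genes with an adjusted p-value under 0.05 with AngII and 0 with DOCA–HS (edgeR). With no filter these counts were 51 and 21, and with total counts or counts outside hemoglobin 4 and 0. The deviations of same-numbered libraries correlated at 0.473 and 0.321 across genes, and with 2 pairs per model the pairing is not established. Apart from the values above, members kept their direction, and the counts of the shallow library (2 to 23) limit every DOCA–HS value.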
